A study of Mus musculus with 6 samples.

Results

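Transcripts of 37 genes of the kidney's mesangial and interstitial extracellular matrix were compared between glomeruli of DKD mice and of Control mice, with 3 RNA libraries in each group. The genes were taken by name from a list, not by a threshold on their values, out of 55401 genes in the deposited count table, and all 37 were found there. All 37 also passed the filter on low counts, which kept 19717 genes. The labels call the tissue glomeruli, the filtering units of the kidney, and give only DKD or Control in the genotype field. The series title spells DKD out as diabetic kidney disease. How diabetes was brought about, and the strain, sex and age of the mice, are not stated in the labels used here. Whether each library stands for a separate animal is not given in the labels, and p-values below therefore cover the spread among libraries, which may be technical.

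Mesangial cells hold the glomerular capillary tufts together and lay down the matrix between them, and fibroblasts do so in the interstitium around tubules and vessels. This matrix is built from fibril-forming collagens, the beaded filaments of collagen VI, basement membrane proteins, proteoglycans, adhesive glycoproteins and elastic fibres, and lysyl oxidases cross-link its collagen and elastin. Expansion of the mesangial matrix is a classical lesion of diabetic kidney disease, and TGF-beta acting through SMAD3 is the best known inducer of many of these genes. SMAD3 is named in the title of the series.

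Levels are given in CPM, TMM-scaled counts relative to library size, and library totals ran from 71154026 to 83576494 counts. The 37 genes together held 0.114% to 0.214% of the counts in DKD libraries and 0.119% to 0.256% in Control libraries. Podocyte markers (6 of 6 measured) summed to 270.4 to 366 CPM in DKD and 406 to 560.4 CPM in Control, and proximal tubule markers (6 of 6) summed to 3065 to 4869 CPM in DKD and 6346 to 12101 CPM in Control, so the libraries held RNA of the tubule as well as of the glomerulus. Control replicate 3 had the highest tubule sum, and its log2 CPM correlated at 0.977 and 0.976 with those of Control replicates 1 and 2, which correlated at 0.993 with each other. In such bulk samples, fewer cells of a type and less RNA per cell cannot be told apart.

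The matrix genes followed the library more than the group. Their summed level was 1252, 2107 and 1878 CPM in DKD replicates 1 to 3, against 2275, 2167 and 1318 CPM in Control replicates 1 to 3. DKD replicate 1 and Control replicate 3 lay well below the other libraries, and the groups overlapped. Of the 37 genes, 20 had their lowest level of all 6 libraries in DKD replicate 1 and 15 in Control replicate 3, while the highest level never fell in either of these libraries. For 27 of the 37 (73.0%), these were the 2 lowest libraries of all, against 11.2% of all genes tested. Within their groups, DKD replicate 1 and Control replicate 3 were both lowest for 33 genes (89.2%, against 18.7% of all genes tested). The SD within groups, on the scale of log2(CPM + 0.5), had a median of 0.525 over the members and 0.230 over all genes tested, and 35 of the 37 lay above the value for all genes.

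**Figure D1:**
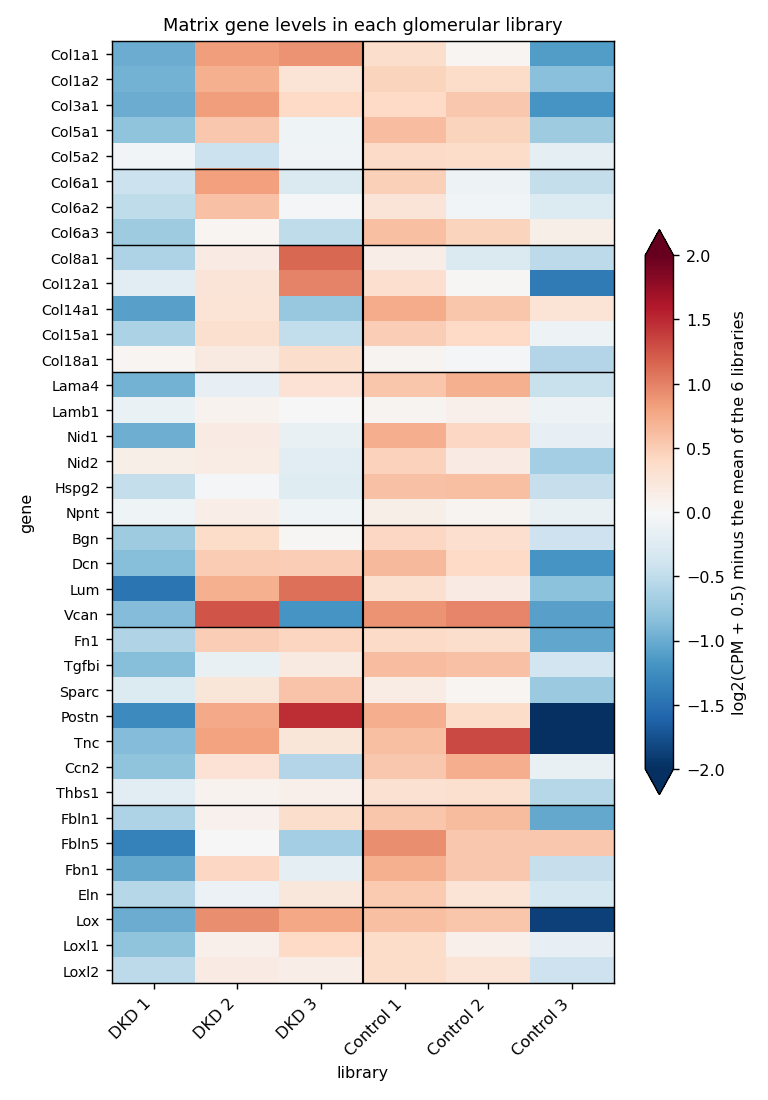
Level of each of the 37 matrix genes in each library, as log2(CPM + 0.5) minus the gene's mean over the 6 libraries, with black lines between the groups of genes and between DKD (left) and Control (right). DKD replicate 1 and Control replicate 3 are blue for most genes, with 20 and 15 of the 37 genes at their lowest there.

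Marker sums of the cells that make this matrix varied in the same libraries. The 6 fibroblast markers summed to 27.03, 75.1 and 49.7 CPM in DKD replicates 1 to 3, against 91.3, 68.8 and 39.5 CPM in Control replicates 1 to 3. DKD replicate 1 and Control replicate 3 were again the 2 lowest. Pdgfra, a receptor for platelet-derived growth factors on fibroblasts, was the most abundant of these markers. It was at 12.6, 48.7 and 22.8 CPM in DKD, against 64.8, 50.5 and 27.8 CPM in Control. On average it held 28.04 of 50.6 CPM of the sum in DKD and 47.7 of 66.5 CPM in Control. Clec3b was at 0 in Control replicate 3. Log2 fold changes were positive for 2 of the 6, Dpt (1.35 ± 0.61 (SE), edgeR adjusted p 0.245) and Scara5 (0.03 ± 0.52), and negative for 4. Pi16 was lowest within DKD in replicate 2, and Scara5 within Control in replicate 2. The 7 mesangial markers summed to 161, 187 and 186 CPM in DKD replicates 1 to 3, against 277, 229 and 163 CPM in Control replicates 1 to 3, where DKD replicate 1 and Control replicate 3 were again lowest in their groups. Not every marker had this order. Gata3 was highest within DKD in replicate 1 (14.9, 11.7 and 12.8 CPM), and Agtr1a was lowest within DKD in replicate 3 and within Control in replicate 2. Of these 7, 3 had an unadjusted p under 0.05 in edgeR (42.9%, against 22.6% of all genes tested). At an adjusted p under 0.05 edgeR called 1 of the 7, where it called 1.16% of all genes tested. The gene called was Agtr1a, which encodes an angiotensin II receptor. It fell to 27.1, 30.4 and 22.7 CPM in DKD, against 64.7, 48.4 and 55.02 CPM in Control (log2 fold change −1.07 ± 0.16 (SE), edgeR adjusted p 0.0360). It was past the threshold in 2 of 6 fits that left out 1 library, those without DKD replicate 2 or Control replicate 3, and the other 4 adjusted p-values reached 0.142. Proximal tubule sums were highest in Control replicate 3 and, within DKD, in replicate 1, the same libraries in which matrix genes were lowest. The part of cell makeup in the matrix values was not tested.

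Between the groups, none of the 37 genes passed the threshold of an adjusted p under 0.05 in edgeR's quasi-likelihood test, where 1.16% of all genes tested passed. Without adjustment, 3 members had a p under 0.05 in edgeR and all were lower in DKD. They were 8.11% of the members, against 22.6% of all genes with such a p in either direction and 10.9% with such a p and lower in DKD. These 3 genes, Fbln5, Col6a3 and Col14a1, were also the members whose DKD and Control libraries did not overlap (8.11%, against 15.2% of all genes with every DKD library below Control and 30.7% in either direction). Limma-voom also called 0 members (1.03% of all genes), and DESeq2 called 2, Fbln5 and Col6a3, where it called 13.7% of the genes it gave an adjusted p. Log2 fold changes, DKD over Control, were negative for 23 members and positive for 14, with a median of −0.14, against a median of 0.0029 and 49.8% negative over all genes tested. That median was 0.031 without DKD replicate 1 and −0.36 without Control replicate 3, and the number of negative members ran from 15 without DKD replicate 1 to 30 without Control replicate 3, with 18 without Control replicate 2 and 29 without DKD replicate 2. Hspg2 passed the threshold without Control replicate 3 (1.88% of all genes did).

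**Figure D2:**
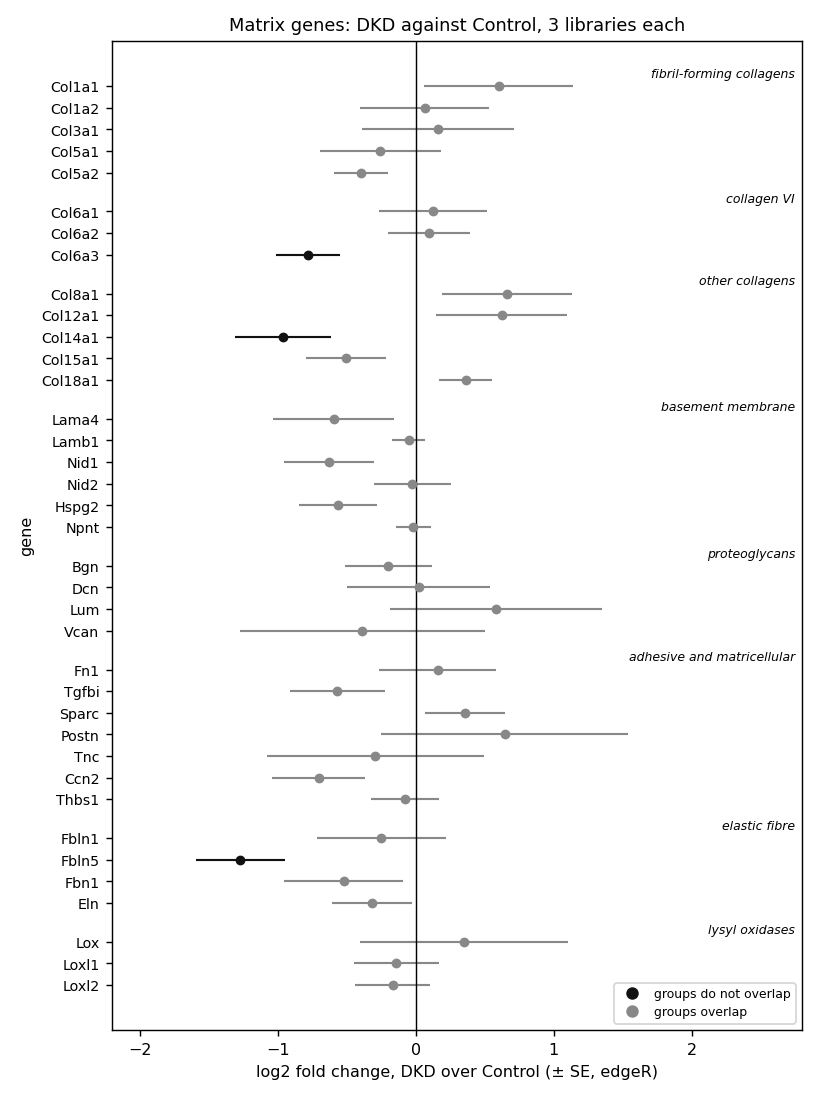
Log2 fold change of each matrix gene, DKD over Control, with its standard error from edgeR, ordered by role. Fbln5, Col6a3 and Col14a1, drawn in black, are the genes whose groups do not overlap, and all 3 lie below 0.

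Fbln5 encodes fibulin-5, which organises elastic fibres and tethers them to cells through integrins, and it had the largest difference of the 37 genes. It was measured at 32.7, 83.6 and 52.2 CPM in DKD replicates 1 to 3, against 161, 123 and 123 CPM in Control replicates 1 to 3. Every DKD library lay below every Control library, and Control replicate 3, low for most of the other matrix genes, was level with Control replicate 2 here. Means were 56.2 ± 25.7 CPM in DKD and 135 ± 22.1 CPM in Control (SD, n = 3 each), the log2 fold change −1.27 ± 0.32 (SE), and edgeR's adjusted p 0.0889. Over the 16 alternative fits the log2 fold change stayed between −1.69 and −0.995 and the adjusted p ran from 0.00246 (DESeq2) to 0.257, passing the threshold in DESeq2 and, in edgeR, without DKD replicate 2 (adjusted p 0.0486, where 1.46% of all genes passed).

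Other elastic fibre genes had smaller differences. Fbn1, fibrillin-1, the scaffold on which elastin is deposited, was at 5.90, 16.8 and 10.9 CPM in DKD, against 20.8, 18.4 and 8.91 CPM in Control. Eln, elastin itself, was at 8.35, 11.6 and 14.8 CPM in DKD, against 18.3, 15.3 and 9.77 CPM in Control. In both, DKD replicate 1 and Control replicate 3 were the lowest libraries and the groups overlapped. Fbln1, fibulin-1, had a log2 fold change of −0.25 ± 0.47 (SE), Fbn1 of −0.52 ± 0.43 and Eln of −0.32 ± 0.29, with edgeR adjusted p-values of 0.796, 0.519 and 0.559. All 4 elastic fibre genes were thus below 0 in this fit, and 1 of them did not overlap between groups. Fbln1 turned to 0.021 without Control replicate 2.

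Collagen VI forms beaded filaments that link cells to the surrounding matrix, and its chains differed in their values. Col6a3, which encodes the longest of the listed chains and the precursor of the fragment endotrophin, was at 9.65, 16.6 and 11.2 CPM in DKD replicates 1 to 3, against 24.7, 22.2 and 17.5 CPM in Control replicates 1 to 3. All DKD libraries were below all Control libraries, and the highest DKD value came close to the lowest Control value. The log2 difference was −0.78 ± 0.23 (SE), at an edgeR adjusted p of 0.118. Col6a1 was at 14.5, 35.4 and 16.02 CPM in DKD, against 27.9, 18.4 and 14.2 CPM in Control, and Col6a2 at 8.49, 18.6 and 12.04 CPM in DKD, against 14.8, 11.8 and 9.96 CPM in Control. Both overlapped, with DKD replicate 2 highest of all libraries, and had log2 fold changes of 0.13 ± 0.39 and 0.10 ± 0.30 (adjusted p 0.881 and 0.878), both negative when only library totals were used for scaling. The difference between Col6a3 and the other chains was not tested.

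The promoter sequences below are shown for 2 of the genes whose groups did not overlap, Fbln5 and Col6a3, and for 2 fibril-forming collagens that followed the library, Col1a2 and Col3a1. Each is the 250 bases before the RefSeq start (for Fbln5, which has 2 windows, the one farther upstream), 5′ to 3′ on the strand of the gene, with coordinates of GRCm38.p6, a build older than the one named for the counts. Capitals mark each match to CCAAT, a motif bound by NF-Y, or to CAGAC, a core of SMAD-binding elements, read on both strands (ATTGG and GTCTG on the other).
Fbln5, chr12:101819120-101819369, minus strand: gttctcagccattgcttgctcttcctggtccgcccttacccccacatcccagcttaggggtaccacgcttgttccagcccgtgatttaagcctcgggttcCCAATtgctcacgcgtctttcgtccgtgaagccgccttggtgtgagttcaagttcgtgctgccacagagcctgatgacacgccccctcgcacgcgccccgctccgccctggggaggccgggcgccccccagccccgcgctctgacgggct
Col6a3, chr1:90843972-90844221, minus strand: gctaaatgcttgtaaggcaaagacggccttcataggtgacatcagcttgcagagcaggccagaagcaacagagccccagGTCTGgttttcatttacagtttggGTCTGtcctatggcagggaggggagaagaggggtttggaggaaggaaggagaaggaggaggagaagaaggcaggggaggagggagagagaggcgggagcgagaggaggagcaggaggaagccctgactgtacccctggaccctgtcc
Col1a2, chr6:4505368-4505617, plus strand: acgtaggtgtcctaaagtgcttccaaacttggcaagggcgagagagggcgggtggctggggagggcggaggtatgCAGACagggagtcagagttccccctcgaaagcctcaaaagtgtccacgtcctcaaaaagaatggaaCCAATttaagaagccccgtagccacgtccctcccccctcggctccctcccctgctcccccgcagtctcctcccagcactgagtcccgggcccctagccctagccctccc
Col3a1, chr1:45311288-45311537, plus strand: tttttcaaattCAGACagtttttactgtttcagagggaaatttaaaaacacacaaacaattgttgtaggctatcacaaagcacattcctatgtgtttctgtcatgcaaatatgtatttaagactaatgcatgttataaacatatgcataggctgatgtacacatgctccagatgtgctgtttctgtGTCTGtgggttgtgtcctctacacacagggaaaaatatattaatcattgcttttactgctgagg
Fbln5 held 1 CCAAT and no CAGAC in the window printed, and its other window, chr12:101818485-101818734, held 2 CAGAC and no CCAAT. Col6a3 held 2 CAGAC and no CCAAT, Col1a2 held 1 of each, and Col3a1 held 2 CAGAC and no CCAAT. No base was shared between matches to the 2 motifs. RefSeq windows were found for 22 of the 37 members, and 14 of these had CAGAC and 6 had CCAAT in at least 1 window. By window, CAGAC occurred in 15 of 29 (51.7%) and CCAAT in 6 of 29 (20.7%), against 42.2% and 33.8% of 32851 windows of all genes. The letters alone do not show binding.

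The fibril-forming collagens, the rope-like fibrils of the interstitium, also followed the library, and for 4 of the 5, all but Col5a2, DKD replicate 1 and Control replicate 3 were the 2 lowest libraries. Col1a1 and Col1a2 encode the chains of type I collagen. Col1a1 was at 14.1, 51.5 and 53.9 CPM in DKD replicates 1 to 3, against 36.5, 29.3 and 12.9 CPM in Control replicates 1 to 3. DKD replicates 2 and 3 were the 2 highest libraries, and DKD replicate 1 sat beside Control replicate 3 at the bottom. The fold change on the log2 scale was 0.60 ± 0.54 (SE), at an edgeR adjusted p of 0.555, and it stayed positive in all 16 alternatives, between 0.27 and 1.01. Col1a2 was at 34.9, 112 and 82.2 CPM in DKD, against 92.6, 88.3 and 37.8 CPM in Control, and Col3a1, the chain of type III collagen found with it in fibrils, at 21.6, 78.4 and 57.3 CPM in DKD, against 57.8, 63.8 and 18.9 CPM in Control. Their highest library exceeded their lowest by 3.19 and 4.16 times, whereas the log2 fold changes between groups were 0.06 ± 0.47 and 0.16 ± 0.55. Col5a1 and Col5a2, chains of the type V collagen that starts fibrils, had −0.26 ± 0.44 and −0.39 ± 0.19. Col5a2 differed from the rest in that DKD replicate 2 was its lowest library, at 17.3 CPM. Adjusted p-values of the 5 genes ran from 0.278 to 0.950.

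**Figure D3:**
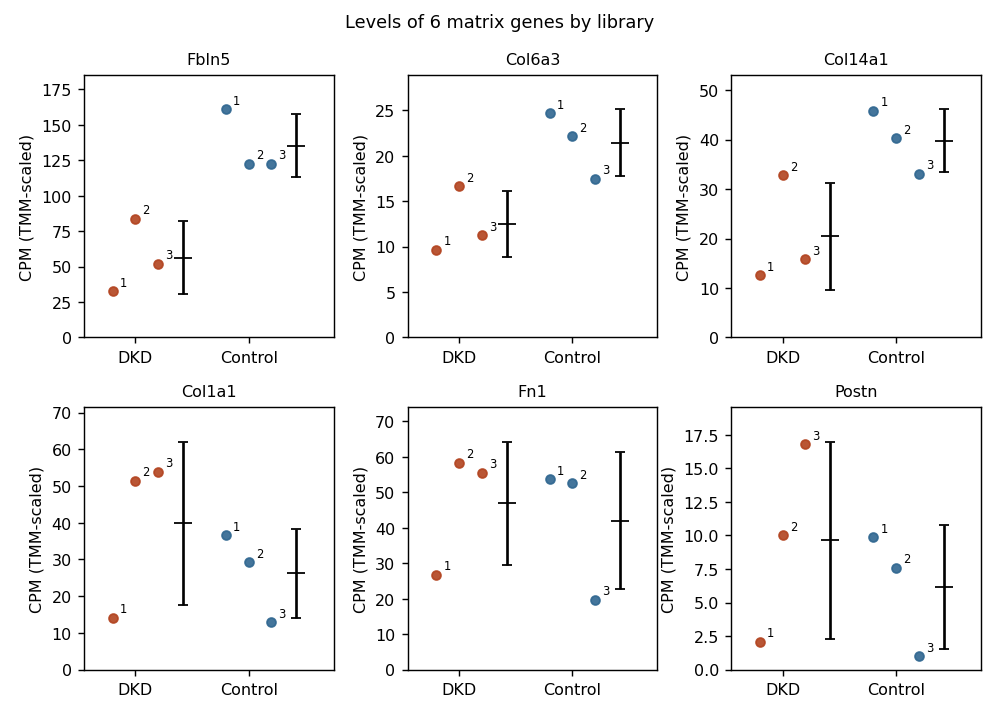
Level in CPM of 6 matrix genes in each library, numbered by replicate, with DKD left of Control and the mean ± SD of each group (n = 3) beside the points. In Fbln5, Col6a3 and Col14a1 every DKD library lies below every Control library, while in Col1a1, Fn1 and Postn, DKD replicate 1 and Control replicate 3 are low and the groups overlap.

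Among the other collagens, Col14a1, a fibril-associated collagen of fibroblasts, was at 12.6, 32.8 and 15.8 CPM in DKD replicates 1 to 3, against 45.8, 40.3 and 33.1 CPM in Control replicates 1 to 3. The groups did not overlap, although DKD replicate 2 came within 1% of Control replicate 3. Its log2 fold change came to −0.96 ± 0.35 (SE), at an edgeR adjusted p of 0.163, and Col14a1 passed the threshold only without DKD replicate 2 (−1.49, adjusted p 0.0427). Col18a1, a basement membrane collagen and the precursor of endostatin, was the most abundant of the 13 listed collagens per kilobase of exon, with 32.1 CPM per kilobase in DKD and 24.98 in Control. It was at 202, 222 and 252 CPM in DKD, against 203, 192 and 130.4 CPM in Control, with Control replicate 3 lowest and DKD replicate 3 highest, and the groups overlapped (log2 fold change 0.36 ± 0.19, adjusted p 0.314). Col15a1, its relative in vessel and muscle basement membranes, had −0.50 ± 0.29. Col8a1, a short-chain collagen of vessels, and Col12a1, a fibril-associated collagen, had 0.66 ± 0.47 and 0.62 ± 0.48. Both were highest in DKD replicate 3, at 11.6 and 42.4 CPM, and their adjusted p-values were 0.447 and 0.482. Without that library the log2 fold changes were 0.028 and 0.22, and without Control replicate 3 that of Col12a1 was 0.25.

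The basement membrane genes were of 2 kinds. Npnt, nephronectin, a ligand of integrin alpha-8 in the developing kidney, was at 118, 137 and 118 CPM in DKD, against 136, 129 and 112 CPM in Control. Lamb1, the beta chain of several laminins, was at 127, 146 and 138 CPM in DKD, against 145, 150.0 and 130.1 CPM in Control. These were the steadiest of the 37 genes, with the highest library above the lowest by 1.22 and 1.19 times, and log2 fold changes of −0.02 ± 0.13 and −0.05 ± 0.12 (edgeR adjusted p 0.949 and 0.844). Nid1, nidogen-1, which joins laminin to collagen IV, was at 20.98, 46.9 and 37.6 CPM in DKD, against 69.4, 55.9 and 37.3 CPM in Control. Hspg2, which encodes the heparan sulfate proteoglycan perlecan, was at 47.2, 65.2 and 55.9 CPM in DKD, against 99.8, 101 and 48.01 CPM in Control. For these genes Control replicates 1 and 2 were above all DKD libraries while Control replicate 3 was not, and the log2 fold changes were −0.62 ± 0.33 and −0.56 ± 0.28 (adjusted p 0.304 and 0.290). Without Control replicate 3, Hspg2 had −0.84 with an adjusted p of 0.0492. Lama4, a laminin chain of vessels, had −0.59 ± 0.44, and Nid2 had −0.02 ± 0.28. All 6 genes of this group were below 0 in this fit, but Lamb1, Nid2 and Npnt turned positive in 2, 6 and 5 of the 16 alternatives. Rtraf, on the opposite strand, overlaps 8.45% of the exonic bases of Nid2 and was more abundant (92.2 CPM in DKD and 76.1 CPM in Control), and whether counting used the strand is not stated. Fbn1 and Ccn2 also overlap gene models on the opposite strand, Gm9913 and Gm15270, which were below 1 CPM in both groups.

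Of the proteoglycans, Bgn, biglycan, was the most abundant per kilobase of exon, with 30.7 CPM per kilobase in DKD and 35.2 in Control. It was at 118, 248 and 195 CPM in DKD replicates 1 to 3, against 256, 243 and 144 CPM in Control replicates 1 to 3. DKD replicate 1 and Control replicate 3 were lowest, the groups overlapped, and the log2 fold change came to −0.20 ± 0.32 (SE), at an edgeR adjusted p of 0.754. Dcn, decorin, which binds collagen fibrils, was at 22.5, 58.8 and 57.98 CPM in DKD, against 64.7, 54.7 and 17.8 CPM in Control, and its log2 fold change was 0.02 ± 0.52. Lum, lumican, another small proteoglycan of fibrils, and Vcan, versican, a large hyaluronan-binding one, were low and uneven, with the highest library above the lowest by 10.5 and 7.53 times. Vcan was at 1.40, 7.81 and 1.04 CPM in DKD, against 5.94, 6.31 and 1.14 CPM in Control. A single DKD library carried its DKD mean, and without it, that is without DKD replicate 2, the log2 fold change was −1.88 in place of −0.38.

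Among the adhesive and matricellular genes, Ccn2, also known as connective tissue growth factor and a classical TGF-beta target, had in Control the highest level of the 37 per kilobase of exon, with 41.5 CPM per kilobase in DKD and 67.5 in Control. It was at 82.8, 177 and 96.3 CPM in DKD replicates 1 to 3, against 209.7, 239 and 130.0 CPM in Control replicates 1 to 3. Control replicates 1 and 2 were above all other libraries, and DKD replicate 2 exceeded Control replicate 3. Its log2 fold change came to −0.70 ± 0.34 (SE), at an edgeR adjusted p of 0.267, and it stayed negative in all 16 alternatives, between −1.12 and −0.50. Fn1, fibronectin, which seeds matrix assembly, was at 26.8, 58.4 and 55.5 CPM in DKD, against 53.7, 52.6 and 19.8 CPM in Control. Its log2 fold change was 0.16 ± 0.43 (adjusted p 0.861). Tgfbi, a TGF-beta-induced adhesion protein, had −0.57 ± 0.35, and Thbs1, thrombospondin-1, an activator of latent TGF-beta, had −0.08 ± 0.24.

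Postn and Tnc, periostin and tenascin-C, matricellular proteins often raised in injured tissue, varied most between libraries. Postn was at 2.09, 10.02 and 16.8 CPM in DKD, against 9.88, 7.60 and 1.00 CPM in Control, and Tnc at 7.86, 26.1 and 17.6 CPM in DKD, against 22.6, 37.4 and 3.03 CPM in Control. Their highest library exceeded their lowest by 16.7 and 12.4 times, and the log2 fold changes were 0.65 ± 0.89 and −0.29 ± 0.79, each smaller than its standard error. Sparc, a collagen-binding glycoprotein of many matrix-forming cells, was at 112, 160.1 and 202 CPM in DKD, against 150.4, 139 and 80.4 CPM in Control (log2 fold change 0.36 ± 0.29, edgeR adjusted p 0.510). The lysyl oxidase Lox had 0.35 ± 0.75, Loxl1 −0.14 ± 0.31 and Loxl2 −0.17 ± 0.27, with adjusted p-values between 0.764 and 0.826. Loxl2 is uncertain, since transcripts of other genes, chiefly Gm21451, hold 46.2% of its 31-base words.

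Because most members moved together by library, each gene was also expressed as a share of the summed CPM of all 37 in its own library, a scaling chosen after the values were seen. On this scale 9 members (24.3%) did not overlap between groups, where 13.0% of all genes divided by the same sum did not. Before the division these values were 8.11% and 30.7%. The divisor is the members' own sum, so it takes out spread that the members share and brings that spread into other genes. The 24.3% and 13.0% are therefore not a like comparison, and no conclusion is drawn from them. Shares add up to the whole, so a lower share of a gene raises those of the others. Fbln5 made up 2.61%, 3.97% and 2.78% in DKD replicates 1 to 3, against 7.07%, 5.66% and 9.31% in Control replicates 1 to 3. Ccn2 made up 6.62%, 8.40% and 5.13% in DKD replicates 1 to 3, against 9.22%, 11.04% and 9.87% in Control replicates 1 to 3. Both shares were lower in every DKD library, and so were those of Col6a3, Col14a1, Col15a1 and Nid1. Col18a1 made up 16.1%, 10.6% and 13.4% in DKD replicates 1 to 3, against 8.94%, 8.87% and 9.90% in Control replicates 1 to 3. Sparc made up 8.95%, 7.60% and 10.7% in DKD replicates 1 to 3, against 6.61%, 6.43% and 6.10% in Control replicates 1 to 3. These shares, and that of Col12a1, were higher in every DKD library.

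Summed by kind, the 13 collagens made up 30.3%, 31.02% and 31.9% in DKD replicates 1 to 3, against 26.7%, 25.9% and 24.9% in Control replicates 1 to 3. The groups did not overlap, and the libraries of each group lay within 2 percentage points of each other, DKD replicate 1 and Control replicate 3 included. Without Col18a1 the other 12 collagens made up 17.7% ± 3.24 in DKD and 16.6% ± 1.43 in Control (SD, n = 3 each) and the groups overlapped, so the separation rested on Col18a1. The 4 elastic fibre genes made up 4.20%, 5.77% and 4.76% in DKD replicates 1 to 3, against 9.38%, 7.87% and 11.04% in Control replicates 1 to 3. Here too 1 gene set the difference, since without Fbln5 the other 3 made up 1.79% ± 0.196 in DKD and 2.08% ± 0.307 in Control (SD, n = 3 each).

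**Figure D4:**
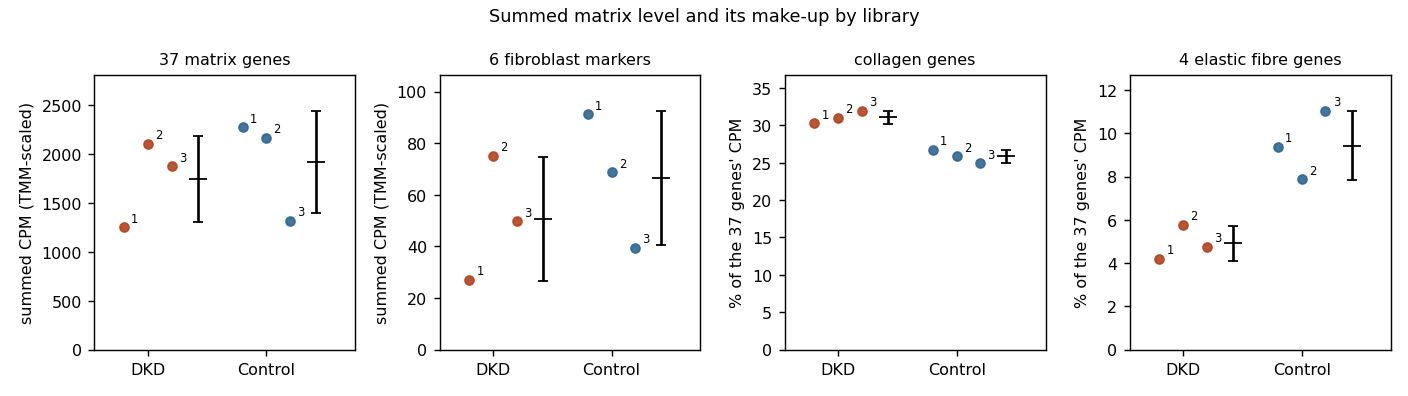
Summed CPM of the 37 matrix genes and of 6 fibroblast markers (left pair), and the percentage of the matrix sum taken by 13 collagens and by 4 elastic fibre genes (right pair), in each library numbered by replicate, with the mean ± SD of each group (n = 3). The sums are low in DKD replicate 1 and Control replicate 3, while the collagen share is 30.3% to 31.9% in DKD and 24.9% to 26.7% in Control. Without Col18a1, not drawn, the collagen share is 14.1% to 20.5% in DKD and 15.0% to 17.8% in Control, and the groups overlap.

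Collagen chains are hydroxylated, folded and trimmed by enzymes and chaperones of the secretory pathway, and 31 such genes were examined beside the matrix genes, of which 30 passed the filter on low counts. None passed the edgeR threshold or that of limma-voom, and DESeq2 called 4 higher and 1 lower in DKD (17.2% of the 29 it gave an adjusted p, against 13.7% of all genes with one). Unadjusted p was under 0.05 for 5 of them, 4 higher and 1 lower (16.7%, against 22.6% of all genes), and 10 did not overlap between groups (33.3%, against 30.7%). Their median log2 fold change was 0.044. The summed level of the list was 2091, 2078 and 2097 CPM in DKD replicates 1 to 3, against 2066, 2125 and 2359 CPM in Control replicates 1 to 3. This sum lacked the low DKD replicate 1 and Control replicate 3 of the matrix sum, but it leaned on abundant genes such as P4hb (means 616 CPM in DKD and 704 CPM in Control). Some single genes, among them Fkbp10, Adamts2 and Colgalt1, had DKD replicate 1 and Control replicate 3 as their 2 lowest libraries. Others, among them P4hb and Mia2, did not. Of all genes tested, 11.2% had these as their 2 lowest libraries. The share of the synthesis list is not given here, so the named genes are examples only.

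The 4 synthesis genes with the smallest p were all higher in every DKD library than in any Control library. They were picked from the 30 by these same values and do not stand for the list. Plod2, a lysyl hydroxylase that directs collagen cross-links, was at 50.3, 53.7 and 51.3 CPM in DKD, against 35.9, 39.9 and 28.8 CPM in Control (log2 fold change 0.57 ± 0.14, edgeR adjusted p 0.0803). P4ha2, a subunit of prolyl hydroxylase, was at 28.8, 33.1 and 32.7 CPM in DKD, against 17.5, 21.4 and 24.1 CPM in Control (0.59 ± 0.14, adjusted p 0.0843). Plod3, a lysyl hydroxylase and glycosyltransferase, was at 48.9, 45.3 and 56.1 CPM in DKD, against 34.1, 34.96 and 39.8 CPM in Control (0.47 ± 0.12, adjusted p 0.0933). DKD replicate 1, low for most matrix genes, stood above all Control libraries in each of these 3. Pcolce, which enhances the trimming of procollagen, was at 109, 101 and 117 CPM in DKD, against 86.5, 78.6 and 65.4 CPM in Control (0.50 ± 0.14, adjusted p 0.0972). DESeq2 called these 4 and, lower in DKD, Mia2, a cargo factor for secretion.

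**Figure D5:**
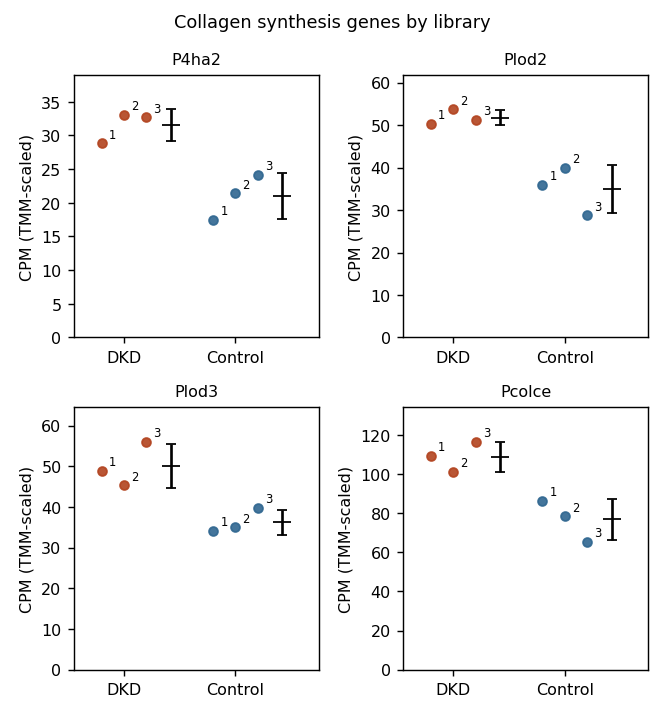
Level in CPM of the 4 collagen synthesis genes with the smallest p in each library, numbered by replicate, with DKD left of Control and the mean ± SD of each group (n = 3). All DKD points lie above all Control points, with edgeR adjusted p-values between 0.0803 and 0.0972.

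Markers of other cell types gave these values beside the matrix genes. Of 6 endothelial markers, which summed to 148 to 241 CPM in DKD and 260.3 to 381 CPM in Control, all 6 had negative log2 fold changes, as had all 6 podocyte markers, and edgeR called 0 of each, with 4 and 6 at an unadjusted p under 0.05 (66.7% and 100%, against 22.6% of all genes). DESeq2 called 3 endothelial and 4 podocyte markers (50% and 66.7%, against 13.7% of all genes) and limma-voom 0 of each. Of the 6 proximal tubule markers, 5 had an unadjusted p under 0.05 (83.3%, against 22.6% of all genes), all lower in DKD. EdgeR called 2 of the 6, where it called 1.16% of all genes. These were Slc5a12 and Slc5a2, transporters of lactate and glucose (log2 fold changes −2.56 ± 0.25 and −1.82 ± 0.30, adjusted p 0.0192 and 0.0445). Leaving out 1 library, Slc5a12 passed in 3 of 6 fits (lost without DKD replicate 1, DKD replicate 3 or Control replicate 1) and Slc5a2 in 1 of 6, that without Control replicate 3. Smooth muscle and renin cell markers summed to 293 to 389 CPM in DKD and 264 to 381 CPM in Control. Parietal epithelial markers summed to 407 to 560.0 CPM in DKD and 259 to 333 CPM in Control. Leukocyte markers summed to 72.01 to 179 CPM in DKD and 35.6 to 123 CPM in Control. EdgeR and limma-voom called 0 of each of these lists. Unadjusted p was under 0.05 for 0, 2 and 1 markers (0%, 50% and 16.7%, against 22.6% of all genes). DESeq2 called 0, 1 and 1 (0%, 25% and 16.7%, against 13.7% of all genes). The endothelial sum was 148, 241 and 219.9 CPM in DKD replicates 1 to 3, against 381, 331 and 260.3 CPM in Control replicates 1 to 3, and the podocyte sum 270.4, 275 and 366 CPM in DKD replicates 1 to 3, against 560.4, 455 and 406 CPM in Control replicates 1 to 3. These sums and the leukocyte sum were lowest within DKD in replicate 1 and within Control in replicate 3, as for the matrix genes. Within DKD the smooth muscle and renin cell sum was highest in replicate 1 and the parietal epithelial sum was lowest in replicate 2. Within Control both were lowest in replicate 3. Ren1 alone held 226 of the 389 CPM in DKD replicate 1, and Acta2, Myh11, Tagln and Cnn1 were each highest within DKD in replicate 3.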

How the data were processed

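Glomerular poly(A) RNA was sequenced in pairs from dUTP libraries, per the labels' protocols. The submitters' processing notes name fastp, HISAT2, StringTie, edgeR and GRCm39. Versions, annotation and strand setting were not given in the sources used here. Values are unnormalized counts for 55401 Ensembl genes as the authors deposited them, with a column for each library.

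Symbols and exon lengths came from GENCODE M21 (GRCm38), which matched 55141 identifiers. The other 260 held 0.00805% of the counts. Genes were kept by filterByExpr (minimum count 10) and tested with edgeR 4.0.16 in R 4.3.3 (TMM, quasi-likelihood, group as the only term), with Benjamini-Hochberg adjustment over 19717 genes and a threshold of 0.05. Fold changes run DKD over Control, and standard errors are the fold change over the root of the F statistic. The biological coefficient of variation was 33.2%. Levels per kilobase use all exonic bases of a gene. Alternatives were RLE and upper quartile factors, library totals, another filter or none, DESeq2 1.42.0, limma-voom (limma 3.58.1), a block on replicate number, robust dispersion, a length trend removed, and each library left out. The procedure was tested on simulated data. Members, lists and alternatives were chosen with earlier results of these data known. Named genes were the members, genes that overlap or share sequence with them, the 4 synthesis genes of smallest p, and the markers past the threshold. Other synthesis genes and markers were named after their values were seen, and the most abundant marker was not named for every list.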

Additional observations from a re-analysis of the deposited data

How the results depend on the processing

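The call of 0 members held in 13 of 16 alternative fits: DESeq2 called 2 (Col6a3 and Fbln5), and leaving out 1 library gave 0 to 2, with 1 without Control replicate 3 (Hspg2) and 2 without DKD replicate 2 (Col14a1 and Fbln5). Genes called over the whole table were 228, but 516 with the filter of 1 CPM in 3 libraries, 56 with no filter, 2483 with DESeq2, 0 with the replicate block and 1 to 386 without 1 library. The collagen synthesis list gave 0 calls, but 5 with DESeq2, and 0 in each fit without 1 library. At an unadjusted p under 0.05 the counts were 4458, 3 and 5 for all genes, members and synthesis genes. The members' median log2 fold change ran from −0.36 to 0.031 without 1 library, and the log2 ratio of their summed levels from −0.35 to 0.054. The median turned positive without DKD replicate 1 (0.031) or Control replicate 2 (0.0016), and the summed ratio without DKD replicate 1 (0.054) or Control replicate 1 (0.0017). Library totals as the only scaling moved the median of all genes to −0.13 and the members' to −0.28. Deviations of same-numbered libraries correlated at −0.27, 0.10 and −0.26, and 1 of 6 libraries correlated best with its own number. With 3 libraries per group these values cannot settle whether the numbers pair the samples, and the labels do not say. The block on replicate number called no member. Of 592 member values over 16 alternatives, 539 kept sign and side of the threshold, 5 passed it and 48 in 19 genes turned sign, all with adjusted p above the threshold; the cause was not tested. Outside leave-one-out fits the sign turned with library totals only for Col1a2 (−0.089), Col6a1 (−0.0103), Col6a2 (−0.032), Dcn (−0.15), Fn1 (−0.0088), and with limma-voom for Nid2 (0.034), Tnc (0.14), and with the replicate number as a block for Nid2 (0.045), Tnc (0.048), and with the length trend removed for Lamb1 (0.12), Nid2 (0.046), Npnt (0.017), Thbs1 (0.017). Leaving out 1 library at a time gave log2 fold changes of both signs for 19 genes, from lowest to highest Col1a2 −0.32 to 0.41, Col3a1 −0.25 to 0.54, Col5a1 −0.66 to 0.031, Col6a1 −0.41 to 0.43, Col6a2 −0.26 to 0.33, Lamb1 −0.11 to 0.0052, Nid2 −0.29 to 0.23, Npnt −0.11 to 0.038, Bgn −0.46 to 0.047, Dcn −0.36 to 0.35, Vcan −1.88 to 0.046, Fn1 −0.18 to 0.44, Postn −0.025 to 1.16, Tnc −0.80 to 0.42, Thbs1 −0.32 to 0.065, Fbln1 −0.63 to 0.021, Lox −0.13 to 0.77, Loxl1 −0.41 to 0.14, Loxl2 −0.38 to 0.034. Of the other 18 genes, 14 kept their sign but moved by over 1.5 times without at least 1 library, Lum for example from 0.031 to 1.09, Col8a1 from 0.028 to 1.01 and Col12a1 from 0.22 to 0.97. Counts per member and library ran from 36 to 21430, so counting error weighs most on Lum, Vcan and Postn.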
